A study of Mus musculus with 16 samples.

Results

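The 39 Hox genes of the mouse were examined in 16 primary rhabdoid tumors (RT). They were chosen by symbol alone, as every gene named Hoxa, Hoxb, Hoxc or Hoxd followed by a number, and they were 39 of the 24982 genes in the count table. All 39 had a read count in at least 1 tumor. They fell into the Hoxa cluster with 11 genes, the Hoxb cluster with 10, the Hoxc cluster with 9 and the Hoxd cluster with 9.

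Hox genes encode homeodomain transcription factors that give cells their position along the head to tail axis of the embryo. Genes at the 3′ end of a cluster are used early and far forward, and genes at the 5′ end later and toward the tail and the tips of the limbs. Genes with the same number in different clusters form a paralog group and descend from a common ancestral gene. The forebrain and midbrain, and the neural crest of the face that comes from them, are known to form without Hox expression, whereas the hindbrain, the spinal cord, the trunk mesoderm and the limbs carry combinations of Hox genes.

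Each tumor came from a different mouse of the genotype Smarcb1flox/flox;R26-CreERT2, in which tamoxifen given during embryonic life allows Cre to delete Smarcb1, a subunit of the SWI/SNF chromatin remodelling complex, in any cell type because the R26 promoter drives it throughout the body. No tumor-free tissue and no mouse of another genotype was among the samples, and the genotype was shared by all 16. The labels placed 5 tumors inside the brain (intra-CNS), all after tamoxifen at embryonic day E6 and taken at an age of 30 to 180 days. Another 6 lay inside the skull but outside the central nervous system (intracranial extra-CNS), with tamoxifen at E8 in 4 of them, at E7 in 1 and at E6 in 1, and an age of 52 to 170 days. The remaining 5 were extracranial, in the back (43825B), the jaw (43987A and R26P123), the nose (43990A) and the mouth (43998A), with tamoxifen at E8 in 4 and at E6 in 1 (the back tumor), and an age of 80 to 210 days. In the study's table of mice the 5 intra-CNS tumors were the Shh subgroup and the 11 extra-CNS tumors the Myc subgroup, so that subgroup and intra-CNS site cannot be told apart here, and the study had assigned the subgroups from expression in these same tumors. The same table lists 43990A as intracranial extra-CNS, and the label was followed.

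The libraries held 17889968 to 110177889 counts. The targeted gene Smarcb1 remained measurable in every tumor, at 3.99 to 58.1 TPM (a level scaled by transcript length and to the same total in every library), and its highest levels were in 29048 (58.1 TPM, intra-CNS) and R26P115 (43.7 TPM, intracranial extra-CNS). The deleted part of the gene was not measured on its own, so that its loss was not checked in any tumor. Between intra-CNS and extra-CNS tumors its log2 fold change was -0.59 (edgeR adjusted p = 0.480), and -1.97 (edgeR adjusted p = 0.0147) without 29048. In 29048 the summed level of 5 oligodendrocyte genes was 5804 TPM, against 7.81 to 117 TPM in the other tumors, and R26P115 had the lowest summed Hox level. Comparisons without these 2 libraries were added after these values were seen. Some markers of other cells differed with the site. Of 8 immune genes 6 were lower in intra-CNS tumors, and their summed level was 515 to 1175 TPM there against 1613 to 11702 TPM in extra-CNS tumors. All 5 fibroblast genes (74.7 to 207 against 513 to 6878 TPM), 4 of 6 skeletal muscle genes and 2 of 6 endothelial genes were lower. All 5 oligodendrocyte genes were called higher, but their summed level had a median of 36.1 TPM in intra-CNS and 29.4 TPM in extra-CNS tumors. The ranges were 19.8 to 5804 TPM, the highest in 29048, and 7.81 to 89.2 TPM, so these calls are not read as a difference by site. Higher too were 5 of 7 neural genes (725 to 2103 against 18.3 to 474 TPM), 1 of 5 bone and cartilage genes and 1 of 5 blood progenitor genes. Of 5 keratinocyte genes 0 passed the test. Beside 12.9% of all genes called higher and 13.1% called lower, counts of 2 or fewer are no result about those lists. No marker was at 0 in every tumor of a group, the part of these cells in the Hox levels was not tested, and in bulk tumors fewer cells with a transcript and less transcript per cell cannot be told apart.

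On mm10 the Hoxa cluster spanned chr6:52155590-52260880, the Hoxb cluster chr11:96194316-96368256, the Hoxc cluster chr15:102921103-103036852 and the Hoxd cluster chr2:74668310-74765142, taken from the first to the last base of their Hox genes in GENCODE. To show what the transcription start of Hox genes looks like, the promoter windows of 4 genes that the results turn on are given here from RefSeq (GRCm38.p6), each running from 250 bases before to 50 bases after a start, 5′ to 3′ on the strand of the gene. They are Hoxd10 (chr2:74691641-74691940, plus strand) and Hoxd11 (chr2:74679308-74679607, plus strand, 1 of 2 windows of that gene), which differed between tumor sites, and Hoxd8 (chr2:74704365-74704664, plus strand) and Hoxa5 (chr6:52204538-52204837, minus strand), the genes of the highest mean level in their clusters. Capitals mark TAAT, the core that homeodomains are known to bind, on either strand (TAAT or ATTA), and matches may overlap.
Hoxd10: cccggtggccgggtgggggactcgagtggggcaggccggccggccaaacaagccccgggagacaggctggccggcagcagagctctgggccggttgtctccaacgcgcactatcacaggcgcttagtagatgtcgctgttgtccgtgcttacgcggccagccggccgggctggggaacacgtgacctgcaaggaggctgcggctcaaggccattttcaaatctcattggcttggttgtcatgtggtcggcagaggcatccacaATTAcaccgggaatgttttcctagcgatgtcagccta
Hoxd11: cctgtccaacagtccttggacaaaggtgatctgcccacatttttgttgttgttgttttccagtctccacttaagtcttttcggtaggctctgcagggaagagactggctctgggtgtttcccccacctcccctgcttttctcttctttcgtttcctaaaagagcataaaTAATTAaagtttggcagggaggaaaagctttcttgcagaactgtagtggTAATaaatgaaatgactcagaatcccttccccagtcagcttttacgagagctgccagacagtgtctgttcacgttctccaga
Hoxd8: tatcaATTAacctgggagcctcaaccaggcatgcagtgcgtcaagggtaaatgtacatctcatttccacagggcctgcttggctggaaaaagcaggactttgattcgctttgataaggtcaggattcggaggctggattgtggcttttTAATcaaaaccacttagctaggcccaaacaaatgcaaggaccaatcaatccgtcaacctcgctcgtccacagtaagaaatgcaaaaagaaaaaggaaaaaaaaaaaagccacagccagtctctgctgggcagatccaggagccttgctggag
Hoxa5: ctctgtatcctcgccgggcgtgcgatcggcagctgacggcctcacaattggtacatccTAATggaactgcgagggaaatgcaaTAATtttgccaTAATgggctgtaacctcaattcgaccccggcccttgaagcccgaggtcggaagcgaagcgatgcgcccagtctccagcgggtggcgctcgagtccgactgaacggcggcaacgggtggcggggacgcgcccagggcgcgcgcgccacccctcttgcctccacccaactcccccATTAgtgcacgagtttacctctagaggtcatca

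Hoxd10 held 1 such core, Hoxd11 held 3 of which 2 overlap, Hoxd8 held 2 and Hoxa5 held 4. The core occurred in 58.0% of the 32817 promoter windows of the table and in 19 of the 24 windows of Hox genes. The longer Pbx and Hox composite motif TGATNNAT occurred on either strand in 8.86% of all windows, in 4 of the 24 Hox windows and in 0 of the 4 shown, but once in the other window of Hoxd11 (chr2:74682073-74682372). CpG dinucleotides numbered 22 in the window of Hoxd10, 4 in the window shown for Hoxd11 and 25 in its other window, 6 in that of Hoxd8 and 29 in that of Hoxa5, beside a median of 14.5 in Hox windows and 7 in all windows. Windows were found for 22 of the 39 Hox genes, with Hoxc6, Hoxc8, Hoxb6 and Hoxb9 among the 17 that had none.

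Every tumor expressed Hox genes, but which cluster it expressed differed from tumor to tumor. A gene was counted as detected above 3 counts, and by that measure 25 to 37 genes were detected in intra-CNS tumors (median 30), 17 to 36 in intracranial extra-CNS tumors (median 29.5) and 15 to 33 in extracranial tumors (median 21). With counts scaled to the total of the smallest library, the medians of these groups were 27, 29.5 and 20. At a level of at least 1 TPM the number ran from 8 genes in the jaw tumor 43987A to 31 in the intra-CNS tumor R26P87. In all, 37 of the 39 genes reached 1 TPM in some tumor, 19 reached it in 8 or more, and 0 reached it in all 16. The exceptions were Hoxb1 and Hoxd1, both of the most anterior paralog group, while Hoxb3, Hoxb4, Hoxc4, Hoxc6 and Hoxc8 were detected in all 16 tumors. The highest tumor was 43825B for 9 genes and R26P87 for 9 others, 38594A for 6 and 43992A for 5.

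**Figure D1:**
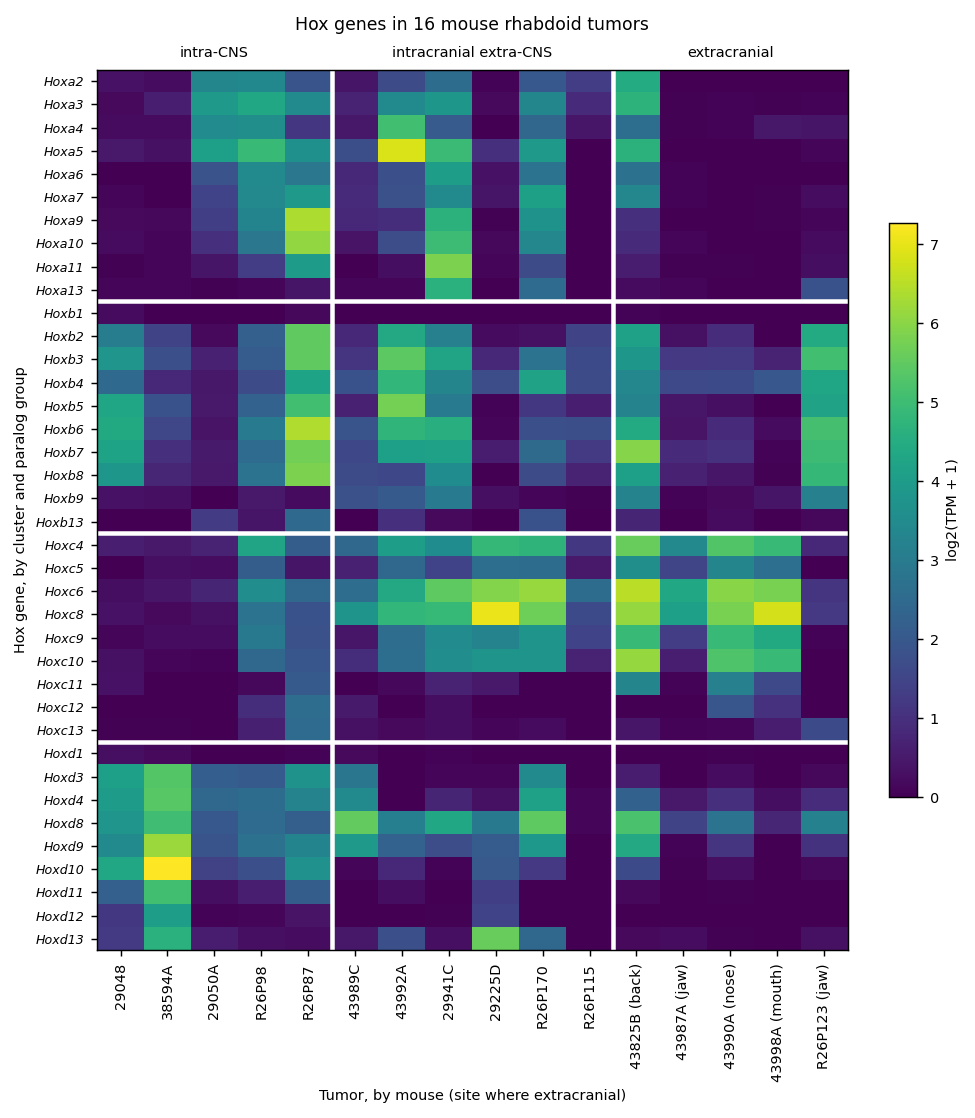
Level of 38 Hox genes (rows, by cluster and paralog group) in the 16 tumors (columns, by site), as log2(TPM + 1) on a color scale. Whole clusters are dark or pale within a tumor: 38594A shows nearly only Hoxd, 43998A nearly only Hoxc, and R26P123 mostly Hoxb.

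The summed level of the 39 genes was 81.7 to 626 TPM in intra-CNS tumors (median 211), 25.4 to 457 TPM in intracranial extra-CNS tumors (median 352) and 58.1 to 639 TPM in extracranial tumors (median 258). These ranges overlapped. What each tumor expressed was dominated by few clusters. Among the intra-CNS tumors, 38594A took 96.6% of its Hox TPM from Hoxd, 29050A took 73.1% and R26P98 50.8% from Hoxa, and R26P87 took 53.9% from Hoxb. The tumor 29048 was divided between Hoxb with 53.4% and Hoxd with 44.7%.

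The intracranial extra-CNS tumors were as diverse. In 43989C the Hoxd cluster gave 62.5%, in 29941C the Hoxa cluster gave 48.5%, and in 43992A the Hoxb cluster gave 41.7% with Hoxa next at 38.0%. Hoxc led in 29225D with 77.9%, in R26P170 with 45.3%, and in R26P115 with 43.9%, where Hoxb followed at 43.4%. Thus each of the 4 clusters led in at least 1 of these 6 tumors.

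The extracranial tumors were described by labelled site without a test, since the back, the nose and the mouth had 1 tumor each. Hoxc led in 4 of the 5, with 50.8% in the back tumor, 84.9% in the jaw tumor 43987A, 93.9% in the nose tumor and 97.9% in the mouth tumor. The other jaw tumor, R26P123, took 90.5% from Hoxb and 2.53% from Hoxc, so that the tumors of the jaw were unlike each other. R26P123 also carried the highest summed levels of keratinocyte genes (2038 TPM) and skeletal muscle genes (678 TPM), whose part in its Hox profile was not tested. The back tumor was the only extracranial tumor in which Hoxa exceeded 10% of the Hox TPM (15.2%), and it had the highest summed level of all 16 tumors (639 TPM).

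**Figure D2:**
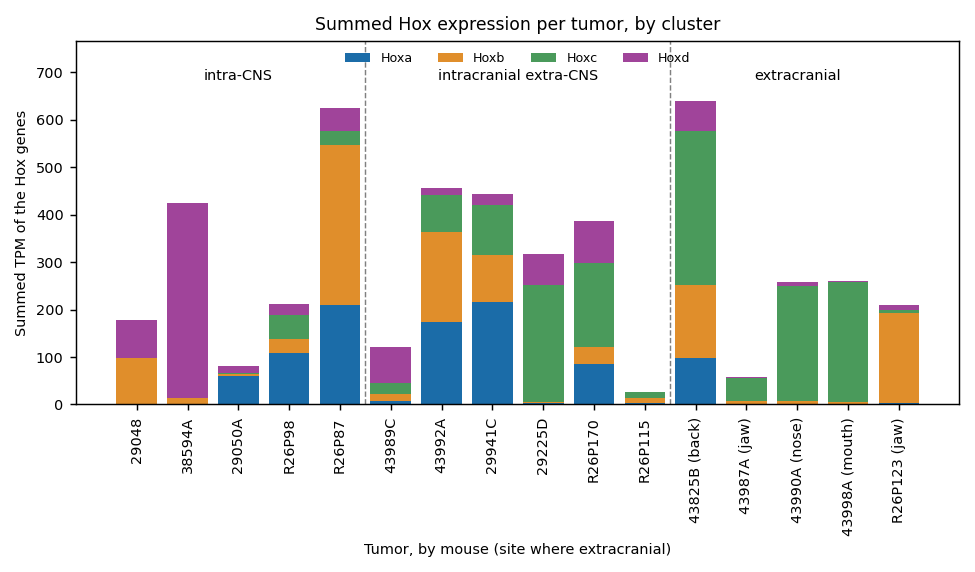
Summed TPM of the Hoxa, Hoxb, Hoxc and Hoxd genes in each tumor as stacked bars, tumors ordered by site. Totals run from 25.4 TPM in R26P115 to 639 TPM in 43825B, and the leading color changes from tumor to tumor within a site.

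Hoxc led in 0 of 5 intra-CNS tumors and in 7 of 11 extra-CNS tumors. Its summed level was 1.44 to 50.8 TPM in intra-CNS tumors and 5.30 to 325 TPM in extra-CNS tumors, ranges that overlapped. Hoxd exceeded 10% of the Hox TPM in 4 of 5 intra-CNS tumors, in 3 of 6 intracranial extra-CNS tumors and in 0 of 5 extracranial tumors. Hoxa did so in 3, 4 and 1 tumors of these groups and Hoxb in 3, 4 and 2.

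To compare the tumors by subgroup and site, counts were fitted with edgeR's quasi-likelihood test over all 21854 genes with a count. Here and below a called gene is a gene whose p, adjusted over all genes tested by Benjamini-Hochberg, was under 0.05 and whose log2 fold change was beyond 1 in either direction. In intra-CNS against extra-CNS tumors, 5 of the 39 Hox genes were called, beside 26.03% of all genes tested. Hoxd10 and Hoxd11 were higher in intra-CNS tumors, 2 genes beside 12.9% of all genes called higher, and Hoxc8, Hoxc6 and Hoxb9 were lower, 3 genes beside 13.1% of all genes called lower. The share of Hox genes called (12.8%) lay below that of all genes. The median log2 fold change of the Hox genes was -0.05 and that of all genes -0.15. By other tools 10 Hox genes were called with DESeq2 (3 higher, 7 lower) beside 29.1% of all genes, 6 with limma on log2(TPM + 1) (4 higher, 2 lower) beside 24.8%, and 8 with limma on log2(TPM + 0.1) beside 30.1%. Against the intracranial extra-CNS tumors alone 3 were called beside 22.97% of all genes, and against the extracranial tumors alone 8 beside 26.2%.

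The medians of the clusters lay on different sides of 0. The median log2 fold change was 1.71 over the 9 Hoxd genes and -2.79 over the 9 Hoxc genes, and it was -0.07 over Hoxa and 0.12 over Hoxb. Positive values were found for 7 Hoxd genes, 2 Hoxc genes, 5 Hoxa genes and 5 Hoxb genes. At an unadjusted p under 0.05 there were 12 Hox genes, beside 44.4% of all genes. They comprised 6 of Hoxc, 3 of Hoxd, 2 of Hoxb and 1 of Hoxa.

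**Figure D3:**
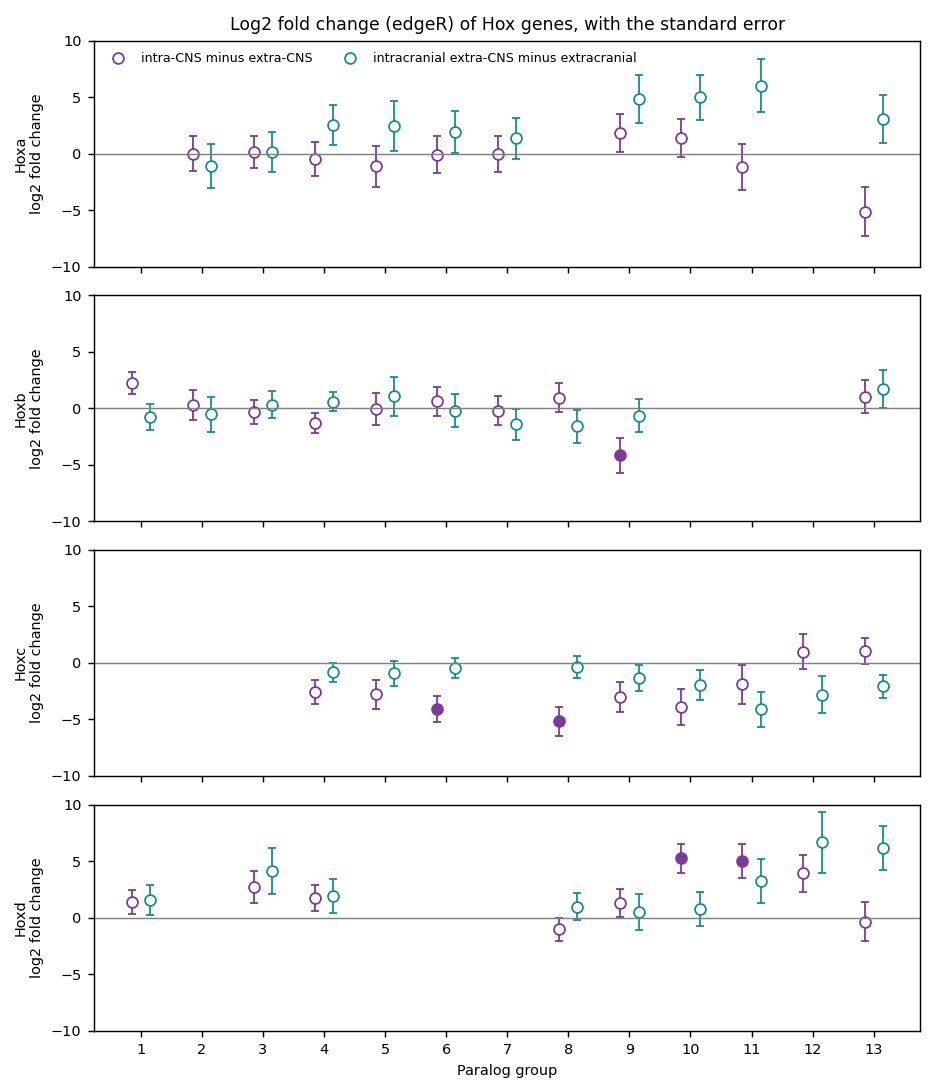
Log2 fold change of 38 Hox genes along their clusters with the standard error, for intra-CNS minus extra-CNS tumors and for intracranial extra-CNS minus extracranial tumors. Filled points passed the threshold: Hoxd10 and Hoxd11 above 0 and Hoxc8, Hoxc6 and Hoxb9 below 0 for intra-CNS minus extra-CNS, and 0 genes for the 2 extra-CNS sites.

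Hoxd10 (ENSMUSG00000050368.4, chromosome 2 from 74691924 to 74695105, promoter shown above) belongs to the posterior genes that pattern the limb and the lumbar spinal cord. Its level was 19.1 TPM in 29048, 154 TPM in 38594A, 1.67 TPM in 29050A, 2.46 TPM in R26P98 and 11.8 TPM in R26P87. In intracranial extra-CNS tumors it ran from 0 TPM to 3.06 TPM with a median of 0.403 TPM. In extracranial tumors it was 2.10 TPM in the back, 0.0242 TPM and 0.115 TPM in the jaw, 0.237 TPM in the nose and 0 TPM in the mouth. The tumor 38594A stood highest, and 9 of 11 extra-CNS tumors lay below every intra-CNS tumor, the exceptions being 29225D and the back tumor. The log2 fold change was 5.24 (SE 1.26, edgeR adjusted p = 0.00469). Without 38594A it was 3.15 with an edgeR adjusted p of 0.0641, so that the call rested on this tumor.

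Hoxd11 (ENSMUSG00000042499.13, chromosome 2 from 74679557 to 74687016), its 5′ neighbor, is known for shaping the forearm together with Hoxa11. It followed the same tumors, at 3.67 TPM in 29048, 32.8 TPM in 38594A, 0.204 TPM in 29050A, 0.5263 TPM in R26P98 and 3.42 TPM in R26P87. In intracranial extra-CNS tumors it ran from 0 to 1.57 TPM with a median of 0.00247 TPM. Extracranial tumors had 0.124 TPM in the back, 0.0347 TPM in the nose and 0 TPM in the jaw and the mouth. Again 9 of 11 extra-CNS tumors lay below every intra-CNS tumor, here with 43992A and 29225D as the exceptions. The log2 fold change was 5.004 (SE 1.51, edgeR adjusted p = 0.0181), and 2.97 with an edgeR adjusted p of 0.154 without 38594A. Against intracranial extra-CNS tumors alone, Hoxd10 stayed called (4.93, edgeR adjusted p = 0.0312) and Hoxd11 did not (4.26, edgeR adjusted p = 0.0955).

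Hoxc8 (ENSMUSG00000001657.7, chromosome 15 from 102990607 to 102994111) is a thoracic gene of the central part of its cluster that also acts in motor neurons of the brachial spinal cord. Its level was 0.287 TPM in 29048, 0.136 TPM in 38594A, 0.263 TPM in 29050A, 5.75 TPM in R26P98 and 2.57 TPM in R26P87. In intracranial extra-CNS tumors it ran from 2.11 TPM in R26P115 to 132 TPM in 29225D with a median of 27.6 TPM. In extracranial tumors it was 68.8 TPM in the back, 16.3 TPM and 1.29 TPM in the jaw, 54.9 TPM in the nose and 111 TPM in the mouth. All extra-CNS tumors except R26P115 and R26P123 lay above every intra-CNS tumor, 9 of 11. The log2 fold change was -5.18 (SE 1.26, edgeR adjusted p = 0.00503).

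Hoxc6 (ENSMUSG00000001661.5, chromosome 15 from 102998257 to 103011881), which lies 3′ of Hoxc8 and is used at the level of the forelimb, had a like pattern. The intra-CNS tumors had 0.213 TPM in 29048, 0.354 TPM in 38594A, 0.686 TPM in 29050A, 10.9 TPM in R26P98 and 4.45 TPM in R26P87. In intracranial extra-CNS tumors it ran from 4.92 TPM in R26P115 to 70.4 TPM in R26P170 with a median of 31.8 TPM. The back had 91.1 TPM, the jaw 19.4 TPM and 1.12 TPM, the nose 62.3 TPM and the mouth 55.6 TPM. Here 8 of 11 extra-CNS tumors lay above every intra-CNS tumor, with 43989C, R26P115 and R26P123 as the exceptions. The log2 fold change was -4.07 (SE 1.15, edgeR adjusted p = 0.0126). With each tumor left out in turn, the edgeR adjusted p was 0.00254 to 0.0146 for Hoxc8 and 0.00574 to 0.0336 for Hoxc6.

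Hoxb9 (ENSMUSG00000020875.9, chromosome 11 from 96271457 to 96276595), a posterior gene that takes part in patterning the rib cage, did not exceed 8.58 TPM. It had 0.283 TPM in 29048, 0.239 TPM in 38594A, 0 TPM in 29050A, 0.411 TPM in R26P98 and 0.164 TPM in R26P87. In intracranial extra-CNS tumors it ran from 0.0337 to 6.92 TPM with a median of 1.35 TPM, and in extracranial tumors it was 8.58 TPM in the back, 0.0498 TPM and 7.95 TPM in the jaw, 0.135 TPM in the nose and 0.329 TPM in the mouth. The groups overlapped, since only 5 of 11 extra-CNS tumors lay above every intra-CNS tumor. The log2 fold change was -4.14 (SE 1.55, edgeR adjusted p = 0.0490). The call was lost in 10 of 16 fits that left out 1 tumor, with an edgeR adjusted p of 0.0302 to 0.0967 over all 16. The tumors whose omission ended it were all 5 intra-CNS tumors and 43989C, 43992A, 29941C, 43825B and R26P123. DESeq2 called Hoxb9 (adjusted p = 0.00138), and so did edgeR with a stricter filter on low counts. It was not called by limma with either pseudocount (adjusted p = 0.187 and 0.225), by edgeR with DESeq2 size factors (0.0510), with the naming scheme of the mice as a covariate (0.0566), against intracranial extra-CNS tumors alone (0.0664) or extracranial tumors alone (0.0547), among tumors induced at E6 (0.0687) or among numbered mice (0.0955).

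**Figure D4:**
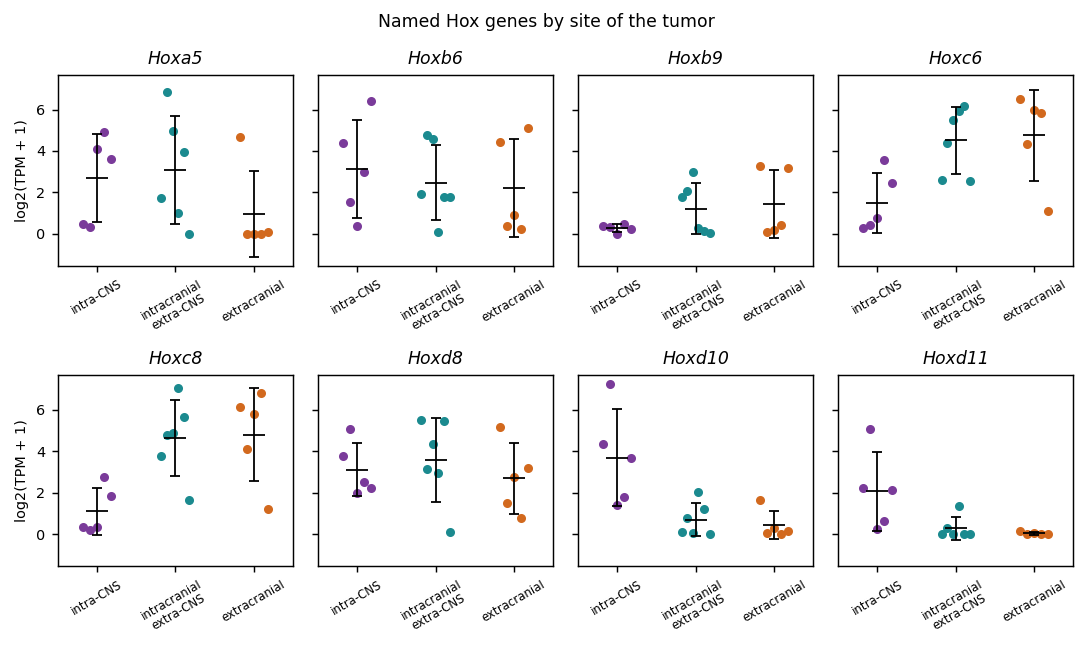
Level of 8 Hox genes in each tumor, as log2(TPM + 1), by site (points are tumors, bars the mean ± SD). Hoxd10 and Hoxd11 sit highest in intra-CNS tumors and Hoxc6 and Hoxc8 in extra-CNS tumors, while Hoxa5, Hoxb6 and Hoxd8 overlap widely between sites.

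None of the 39 genes separated the groups without overlap, beside 11.2% of all genes. The genes of the highest mean level in the other clusters gave no call. Hoxa5 (ENSMUSG00000038253.6, chromosome 6 from 52201754 to 52204587), which acts in the neck, the lung and the brain stem, had 0.407 TPM in 29048, 0.257 TPM in 38594A, 16.1 TPM in 29050A, 29.7 TPM in R26P98 and 11.4 TPM in R26P87. It ran from 0 TPM to 115 TPM in intracranial extra-CNS tumors (median 8.33), and was 24.7 TPM in the back, 0 TPM and 0.0757 TPM in the jaw and 0 TPM in the nose and mouth. High and low tumors thus occurred within each site group, where among the extracranial tumors only the back tumor was high. The log2 fold change was -1.13 (SE 1.85, edgeR adjusted p = 0.654).

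Hoxb6 (ENSMUSG00000000690.5, chromosome 11 from 96292476 to 96301569), a gene of lateral mesoderm and of the blood-forming lineage, had 20.2 TPM in 29048, 1.93 TPM in 38594A, 0.302 TPM in 29050A, 6.79 TPM in R26P98 and 84.5 TPM in R26P87. It ran from 0.0771 to 26.1 TPM in intracranial extra-CNS tumors (median 2.57), and was 20.8 TPM in the back, 0.315 TPM and 34.0 TPM in the jaw, 0.874 TPM in the nose and 0.156 TPM in the mouth. High and low tumors occurred within each site group. The log2 fold change was 0.61 (SE 1.25, edgeR adjusted p = 0.724).

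Hoxd8 (ENSMUSG00000027102.4, chromosome 2 from 74704615 to 74707933), which lies 3′ of Hoxd10 and is used in the trunk, did not share the pattern of Hoxd10. It had 12.8 TPM in 29048, 32.3 TPM in 38594A, 2.98 TPM in 29050A, 4.77 TPM in R26P98 and 3.64 TPM in R26P87. It ran from 0.0843 to 45.0 TPM in intracranial extra-CNS tumors (median 13.5), and was 35.5 TPM in the back, 1.82 TPM and 8.13 TPM in the jaw, 5.81 TPM in the nose and 0.720 TPM in the mouth. The sites overlapped, and the log2 fold change was -1.02 (SE 1.02, edgeR adjusted p = 0.455).

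The other genes that were not called had wide errors, with a median SE of 1.43 on the log2 scale over all 39. They ran from -5.12 for Hoxa13 to 1.85 for Hoxa9 in Hoxa, from -1.30 for Hoxb4 to 2.25 for Hoxb1 in Hoxb, from -3.91 for Hoxc10 to 1.08 for Hoxc13 in Hoxc, and from -1.02 for Hoxd8 to 3.91 for Hoxd12 in Hoxd. Of these, Hoxc10 had an edgeR adjusted p of 0.0702, Hoxd12 of 0.0746, Hoxc4 of 0.0775 and Hoxa13 of 0.0812. With errors of this size a difference of a few fold could go uncalled, so that an uncalled gene is not shown to be unchanged.

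Day of tamoxifen, the naming scheme of the mice and site were unevenly spread. Among tumors induced at E6 alone, 5 intra-CNS against 2 extra-CNS, 3 Hox genes were called beside 16.9% of all genes. Hoxc8 (-5.60, edgeR adjusted p = 0.0287) and Hoxc6 (-5.15, edgeR adjusted p = 0.0385) were among them together with Hoxa13, and Hoxd10 (3.87, edgeR adjusted p = 0.218) and Hoxd11 (6.45, edgeR adjusted p = 0.138) were not. Mouse names followed 2 schemes, and within the 11 numbered mice 9 Hox genes were called beside 25.7% of all genes, with Hoxc8 at -8.50 (edgeR adjusted p = 0.000361) and Hoxc6 at -7.27 (edgeR adjusted p = 0.000578). Within the 5 R26P mice, 2 intra-CNS against 3 extra-CNS, 0 of 39 Hox genes and 0 of all 20347 genes tested were called by edgeR (3514 genes had an unadjusted p under 0.05, and no other tool was run there), with Hoxc8 at -2.62 (edgeR adjusted p = 0.463) and Hoxc6 at -2.26 (edgeR adjusted p = 0.513). With the naming scheme as a covariate over all 16 tumors, Hoxc8, Hoxc6, Hoxd10 and Hoxd11 were called and Hoxb9 was not. Without 29048 and R26P115, 4 Hox genes were called beside 27.1% of all genes, and Hoxb9 was the call that was lost (-4.40, edgeR adjusted p = 0.0563).

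Within the extra-CNS tumors, the 6 intracranial and the 5 extracranial tumors were compared to ask whether Hox expression follows the site of growth inside the Myc subgroup. Among the 39 Hox genes 0 were called by edgeR, beside 0.00470% of all 21261 genes tested, which is 1 gene and no Hox gene. At an unadjusted p under 0.05 there were 6 Hox genes, beside 12.3% of all genes. DESeq2 called 1 Hox gene, Hoxd13 (log2 fold change 6.18, DESeq2 adjusted p = 0.00390), beside 2.30% of all genes, and limma called 0 both on log2(TPM + 1), beside 0.00471%, and on log2(TPM + 0.1), beside 0.00941%. In the numbered mice alone edgeR called 0 Hox genes and 0 of all 20773 genes (1727 had an unadjusted p under 0.05). None of the 39 genes separated these sites without overlap, beside 0.894% of all genes.

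The direction was shared within 3 of the 4 clusters, with no gene called. All 9 Hoxc genes were on the side of extracranial tumors, from -4.11 to -0.33, and all 9 Hoxd genes and 10 of 11 Hoxa genes on the side of intracranial tumors, whereas Hoxb was divided into 4 positive and 6 negative values, with a median over all 39 of 0.56 and over all genes of 0.02. Single tumors carried the largest of these values. Hoxd13, which patterns the digits and the hindgut, was at 47.0 TPM in 29225D and at most 4.38 TPM in the other intracranial extra-CNS tumors (6.13, SE 1.93, edgeR adjusted p = 0.346, and 3.65 without 29225D). Hoxa11, a gene of the forearm and the uterus, was at 56.2 TPM in 29941C (6.03, SE 2.38, edgeR adjusted p = 0.373, and 1.75 without 29941C). Hoxd12 was at 0 in all 5 extracranial tumors, and 121 of its 124 counts in intracranial tumors came from 29225D, which makes it at least 25.6-fold higher against a floor of 3 counts over the group (edgeR adjusted p = 0.389). Hoxc11 had -4.11 (SE 1.56, edgeR adjusted p = 0.366) and -1.17 with 43990A taken as intracranial. Hoxa10 (4.999, SE 2.01, edgeR adjusted p = 0.375) and Hoxa9 (4.87, SE 2.13, edgeR adjusted p = 0.391) completed the 6. With each tumor left out in turn, Hoxa10 was 3.45 to 6.72 and Hoxa9 was 3.65 to 7.81.

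By paralog group, groups 4, 6, 8 and 9 each reached a summed level of 1 TPM in all 16 tumors. Group 8, which holds Hoxb8, Hoxc8 and Hoxd8, ran from 2.82 TPM in R26P115 to 139 TPM in 29225D and had a median of 47.5 TPM, and group 6 had a median of 41.9 TPM. Group 12 had a median of 0.327 TPM and group 13 of 1.71 TPM. The 16 genes of groups 9 to 13, which in the embryo mark levels from the thorax to the tail and the limb, took 70.3% of the Hox TPM in 38594A, 37.7% in 29941C, 33.8% in R26P87 and 30.7% in the nose tumor. Their share was lowest in the jaw tumor 43987A (4.63%) and in 43992A (5.56%). The lowest share among intra-CNS tumors was 11.8%, in 29050A.

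**Figure D5:**
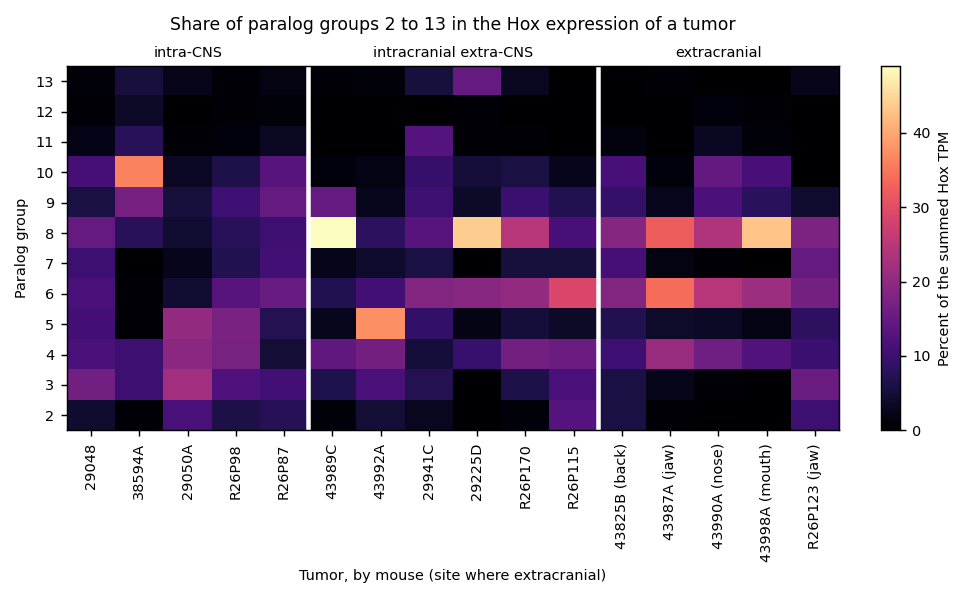
Share of the summed Hox TPM (percent) taken by paralog groups 2 to 13 in each tumor, tumors ordered by site. Groups 9 to 13 take 70.3% in 38594A and 4.63% in 43987A.

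Variation between tumors of a group was described over the genes whose mean level in that group was at least 1 TPM. The SD of log2(TPM + 1) had a median of 1.66 over the 33 Hox genes above this minimum in intra-CNS tumors and of 0.427 over all 15317 genes above it, and of 1.65 over 31 Hox genes and 0.630 over 15023 genes in extra-CNS tumors. A gene can pass this minimum through 1 tumor, which raises its SD. Hoxc12 (median 0 TPM) and Hoxc13 (median 0.0349 TPM) passed in intra-CNS tumors through R26P87, with 5.12 and 4.78 TPM there, so the medians describe the genes that passed and not all members. Without 29048 and R26P115 the Hox medians were 1.71 and 1.68. Across the 11 extra-CNS tumors, levels were more alike within a cluster than within a paralog group. The median Spearman correlation was 0.791 over 114 pairs within a cluster, 0.870 over 27 pairs of neighbors, 0.227 over 351 pairs of different clusters and 0.159 over 29 pairs of the same paralog group. These are descriptions over tumors of differing depth and content of other cells, and without R26P115 the medians within and between clusters were 0.805 and 0.195.

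Of the 17 other genes that lie inside the clusters, 1 was called higher and 2 lower in intra-CNS tumors, beside 26.03% of all genes called. Haglr, a long noncoding gene of the 3′ end of Hoxd that reads antisense, had 10, 6, 1, 1 and 0 counts in the intra-CNS tumors and 0 in all 11 extra-CNS tumors, at least 14.4-fold higher against a floor of 3 counts over the group (edgeR adjusted p = 0.0158). DESeq2 did not call it (adjusted p = 0.127), nor did limma with either pseudocount, where its log2 fold change was under 1 (0.15 and 0.90), or edgeR against extracranial tumors alone or among tumors induced at E6. Gm53, inside Hoxb, had 0 counts in all intra-CNS tumors and 107 counts in 7 extra-CNS tumors, 66 of them in 29941C, at least 14.8-fold lower (edgeR adjusted p = 0.0210), a call that limma did not make and that was lost among tumors induced at E6. By TPM Gm53 was highest in 43989C (2.75 TPM), above 29941C (2.22 TPM), whose library held the most counts. Mir196a-1, also inside Hoxb, had 0 counts in intra-CNS tumors and 28 counts in 6 extra-CNS tumors, 20 of them in 29941C, at least 3.88-fold lower (edgeR adjusted p = 0.0343), and this call was lost without any of the 5 intra-CNS tumors, with DESeq2 and limma, against either extra-CNS group alone, among tumors induced at E6 and among numbered mice. Hoxa11os, the antisense partner of Hoxa11, was highest in R26P87 (96.4 TPM, 1602 counts) and 29941C (33.1 TPM, 2925 counts). These tumors were also highest for Hoxa11 in their groups. Both genes share 800 exon bases on opposite strands, and their reads may not be separated because the strand setting was not given.

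The microRNA genes of the clusters are of interest because their mature forms are known to repress Hox mRNAs, but poly-A libraries measure at most their precursors. Their mature sequences from RefSeq are given with the seed (bases 2 to 8) in capitals. The miR-10 pair comes from the Hoxb (Mir10a) and Hoxd (Mir10b) clusters, and miR-196a is encoded in Hoxb (Mir196a-1) and Hoxc (Mir196a-2) and miR-196b in Hoxa.
miR-10a-5p: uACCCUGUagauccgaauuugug
miR-10b-5p: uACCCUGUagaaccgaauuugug
miR-196a-5p: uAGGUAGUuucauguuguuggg
miR-196b-5p: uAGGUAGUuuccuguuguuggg

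Both miR-10 forms share the seed ACCCUGU and both miR-196 forms the seed AGGUAGU. Mir10b had counts in 38594A alone (11 counts), the tumor with 96.6% of its Hox TPM from Hoxd.

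Genes that act with or upstream of Hox genes were read from lists in the same fit, where 12.9% of all genes were called higher and 13.1% lower in intra-CNS tumors. Of the 9 Pbx, Meis and Pknox genes, homeodomain partners that bind DNA together with Hox proteins, 2 were higher and 0 lower in intra-CNS tumors. Among them was Pbx4 (27.5 to 60.6 TPM against 0.767 to 7.15 TPM, log2 fold change 3.40, SE 0.49, edgeR adjusted p = 0.000101), whose groups did not overlap. Their list had a median of 0.50 beside -0.15 over all genes.

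Of the 8 upstream regulators, 3 were higher and 3 lower, with a median of -0.64. Cdx2, a caudal factor that activates posterior Hox genes, was at 0.990 to 49.3 TPM in intra-CNS tumors and at no more than 1 count in any extra-CNS tumor (edgeR adjusted p = 8.83e-06). Fgf8, a signal of the tail bud and of the junction of midbrain and hindbrain, was at 0.414 to 103 TPM and at no more than 3 counts outside (edgeR adjusted p = 9.86e-05). Egr2 (-2.96, SE 0.76, edgeR adjusted p = 0.00715), which regulates Hox genes in the hindbrain and is also used by macrophages, was lower. The part of immune cells in its level was not tested. Also called in this list were Wnt3a, a tail bud signal, which was higher (3.55, SE 1.13, edgeR adjusted p = 0.0237, and 0.167 without R26P98), and Cdx1, which had at most 2 counts in intra-CNS tumors and up to 63 elsewhere (edgeR adjusted p = 0.0443, a call lost in 9 of 16 fits that left out 1 tumor).

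Of the 17 retinoic acid genes, 2 were higher and 7 lower, with a median of -1.15. The enzyme Aldh1a3, which makes retinoic acid, ran from 0.0651 to 2.54 TPM in intra-CNS tumors and from 1.31 to 330 TPM in extra-CNS tumors (-6.73, SE 1.38, edgeR adjusted p = 0.00150), and Cyp26b1, which degrades it, from 0.388 to 2.20 TPM and from 2.31 to 48.4 TPM (-3.70, SE 0.81, edgeR adjusted p = 0.00246). Crabp1, which binds it in the cytoplasm, was at 0 to 5.40 TPM and 0.819 to 5322 TPM (-9.83, SE 2.20, edgeR adjusted p = 0.00281), and the receptor Rara was lower (-1.33, SE 0.32, edgeR adjusted p = 0.00463), a call lost with limma (-0.65 on log2(TPM + 1)) and among tumors induced at E6. Enzymes of opposite action were thus lower together in intra-CNS tumors. Of the remaining called genes of the list, the enzyme Aldh1a1 (3.75, SE 0.93, edgeR adjusted p = 0.00581, and 0.186 without 29048) and the receptor Rxrg (2.54, SE 0.79, edgeR adjusted p = 0.0214, and 0.0767 without 29048) were higher, and the enzymes Dhrs3 and Cyp26a1 and the receptor Rarg were lower, at log2 fold changes of -2.07, -3.46 and -1.51, where Cyp26a1 lost the call in 9 of 16 such fits and Rarg in 5.

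Of the 26 Polycomb and trithorax genes, which keep Hox clusters silent or active, 4 were higher and 0 lower, with a median of 0.43. Beside 12.9% of all genes called higher and 26.03% called in all, this count is no result about the list. The called genes were Phc1 (2.42, SE 0.25, edgeR adjusted p = 7.69e-06), Ring1 (1.11, SE 0.20, edgeR adjusted p = 0.000507), Cbx2 (1.31, SE 0.38, edgeR adjusted p = 0.0148) and Ezh2 (1.19, SE 0.36, edgeR adjusted p = 0.0174). They encode Polycomb subunits, as do most genes of the list. Phc1 and Ring1 did not overlap between groups, and the call on Ezh2 was lost without R26P87 (edgeR adjusted p = 0.0572). Against extracranial tumors alone, and among tumors induced at E6, Ring1, Cbx2 and Ezh2 were not called, Ring1 in the former because its log2 fold change was 0.96, and among the numbered mice Cbx2 (0.90, edgeR adjusted p = 0.186) and Ezh2 (0.76, edgeR adjusted p = 0.220) were not called.

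Of the 8 ParaHox and Evx genes, the evolutionary relatives of the Hox clusters, 4 were higher and 1 lower, with a median of 3.46. Besides Cdx2 the higher genes were Gsx1, a factor of ventral forebrain and spinal cord progenitors, at 11.3 to 858 TPM against 0 to 0.441 TPM (11.43, SE 1.22, edgeR adjusted p = 1.03e-05), and its relative Gsx2 (4.32, SE 1.35, edgeR adjusted p = 0.0217, lost without 29050A at 0.101). Pdx1, a factor of the pancreas, was at 0 in all 11 extra-CNS tumors and at no more than 0.386 TPM in intra-CNS tumors (at least 19.2-fold higher, edgeR adjusted p = 0.0147). Of its 24 counts 20 came from 29050A, without which the edgeR adjusted p was 0.0367, and neither DESeq2 (adjusted p = 0.169) nor limma, where its log2 fold change was under 1 (0.15 and 0.89), called it. The call was also lost against extracranial tumors alone (edgeR adjusted p = 0.0564), among tumors induced at E6 (0.244) and among numbered mice (0.0676).

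Of 13 tested genes that flank the clusters, 0 were called higher and 1 lower, beside 26.03% of all genes called, namely Skap2 beside Hoxa (-1.88, SE 0.47, edgeR adjusted p = 0.00633). Of 12 trunk and limb patterning factors 1 was higher and 3 lower, with a median of -1.76. Uncx, a somite gene, reached 1.54 TPM in intra-CNS tumors and no more than 3 counts elsewhere (edgeR adjusted p = 0.000710), and Tbx15, a mesenchymal T-box factor, was lower (-5.13, SE 1.02, edgeR adjusted p = 0.00118). Meox1 (-4.70, SE 1.67, edgeR adjusted p = 0.0399) and Tbx18 (-3.54, SE 1.27, edgeR adjusted p = 0.0418) each lost the call in 8 of 16 fits that left out 1 tumor, namely any of the 5 intra-CNS tumors for both genes, 43989C, 43987A or 43998A for Meox1, and 29225D, 43998A or R26P123 for Tbx18. Neither gene was called by limma with either pseudocount, with the naming scheme of the mice as a covariate (edgeR adjusted p = 0.233 and 0.0508), against intracranial extra-CNS tumors alone, among tumors induced at E6 (where Meox1 was at -0.21) or among numbered mice, and Meox1 was not called without 29048 and R26P115 either (edgeR adjusted p = 0.0667). Of 9 factors of the rostral head, which is free of Hox expression in the embryo, 1 was higher, En2 of the midbrain and hindbrain border (29.7 to 268 TPM against 0 to 5.37 TPM, 6.77, SE 1.34, edgeR adjusted p = 0.00110), and the median of the list was 1.82. Among tumors induced at E6 alone Fgf8, Egr2, Gsx2, Skap2 and Uncx were not called either, nor was Gsx2 against extracranial tumors alone, Egr2 against intracranial extra-CNS tumors alone, or Uncx by limma on log2(TPM + 1), where its log2 fold change was 0.72. In intracranial extra-CNS against extracranial tumors 0 genes of any of these lists were called by edgeR.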

How the data were processed

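RNA from 16 mouse tumors was sequenced by the authors from poly-A selected TruSeq Stranded mRNA libraries, as 100 bp paired reads. The submitters' processing notes name Trim Galore, FastQC, Picard and STAR 2.5.3a on mm10. The gene annotation and the strand setting of the counts were not given in the sources used here, so that reads of overlapping antisense genes may not be separated. The authors deposited raw counts per gene and TPM values per gene, the latter scaled by transcript length and library. Coordinates of genes are from GENCODE for mm10 and sequences from RefSeq.

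Counts were tested with edgeR 4.0.16 in R 4.3.3 (TMM factors, quasi-likelihood test, all genes with a count in any tumor of the comparison, Benjamini-Hochberg adjustment over all of them). A gene was called at an adjusted p under 0.05 with an absolute log2 fold change above 1. DESeq2 1.42.0 and limma 3.58.1 on log2(TPM + 1) served as alternatives. Detection required more than 3 counts, a floor that covers counting error only. Replicates were separate mice. The named genes were every Hox gene past the threshold and the gene of the highest mean TPM in each cluster, and up to 4 called genes of each list by smallest adjusted p (the rest of the called upstream and retinoic acid genes were added after their values were seen). The 39 members and the gene lists were chosen with earlier results of these data known, and marker lists overlap in function with the tissues studied. Hoxd3 and Hoxd4 share 388 exon bases on the same strand and Hoxc5 and Hoxc10 share 166, so counts of these 4 genes are uncertain, and Hoxa3, Hoxa7, Hoxa11, Hoxb2, Hoxb3 and Hoxb5 also overlap antisense genes, as do Hoxd3 and Hoxd4. Individual values of 1 Hox gene and of a few genes of the lists are not reported here, while sums and counts over the clusters include every member.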

Additional observations from a re-analysis of the deposited data

Results flagged for a closer look

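Within the 3 site groups the highest and lowest tumor was compared with its neighbor by Dixon's criterion, for the 8 named Hox genes, the 6 with an unadjusted p under 0.05 between the extra-CNS sites, the summed level of each cluster and of all Hox genes, and the number of Hox genes detected. These were 60 sets of values, of which chance flags about 1 in 20. The 6 genes were partly chosen through tumors of high level. In 10 sets the highest tumor stood apart, all values being log2(TPM + 1). The back tumor 43825B stood above the other extracranial tumors for Hoxa5 (4.69, next 0.11), Hoxd10 (1.63), Hoxa9 (0.98) and Hoxa10 (0.88). The intra-CNS tumor 38594A stood apart for Hoxd13 (4.66) and Hoxd12 (4.07), genes next to the Hoxd10 and Hoxd11 described above. Among intracranial extra-CNS tumors, 29225D stood apart for Hoxd11 (1.36) and Hoxd12 (1.46) and 29941C for Hoxa11 (5.84). The intra-CNS tumor R26P87 stood apart for Hoxc11 (2.05).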

How the results depend on the processing

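Of the 5 Hox genes called in intra-CNS against extra-CNS tumors, the count became 10 with DESeq2 (3 higher, 7 lower), 8 with limma on log2(TPM + 0.1), 3 against intracranial extra-CNS tumors alone, 8 against extracranial tumors alone, 3 among tumors induced at E6, 9 among numbered mice and 0 among R26P mice, and it was 2 to 7 with each tumor left out in turn (2 without 38594A). limma on log2(TPM + 1) called 6 (4 higher, 2 lower). Between the extra-CNS sites DESeq2 called 1 Hox gene, and each omission left 0. The direction reversed for genes that were not called. Hoxa5 became 0.58 with limma on log2(TPM + 1), 1.46 on log2(TPM + 0.1), 0.72 against extracranial tumors alone and 1.58 among R26P mice, and was -1.85 to 0.18 over omissions. Hoxb6 was -1.02 to 0.96 over omissions (-1.02 without R26P87) and -0.96 among numbered mice, Hoxd8 was 0.18 with limma on log2(TPM + 0.1), and Smarcb1, -0.59 in the main comparison (edgeR adjusted p = 0.480), was 0.14 among numbered mice. Smarcb1 passed the threshold without 29048 (-1.97, edgeR adjusted p = 0.0147) and without 29048 and R26P115 (-1.67, edgeR adjusted p = 0.00847). The cause was not tested. The median of all genes was -0.15 with edgeR, -0.03 with DESeq2 and 0.20 with limma on log2(TPM + 1), where 4082 genes were called higher and 1324 lower in place of 2829 and 2860. The median number of Hox genes detected per tumor, 28.5, was 19 above 10 counts and 14.5 at 1 TPM or more. By the latter it was 15 in intra-CNS, 20 in intracranial extra-CNS and 13 in extracranial tumors. With counts scaled to the smallest library it was 24.5, and 27, 29.5 and 20 in these groups. The order of the groups thus depends on the cutoff and on depth. With log2(TPM + 0.1) the median SD of Hox genes was 2.58 and 2.69. Alternative values numbered 1090 over 45 results, which were single genes and the medians of SD and rank correlation, and 945 were unchanged. For a gene this means that direction and side of the threshold were kept. For a median it means a shift smaller than the SD of the values behind it. No paired analysis was possible because no mouse contributed to more than 1 group.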
